A study of Mus musculus with 6 samples.

Results

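The genes described here encode the machinery that copies DNA: the proteins that license origins, unwind the helix, synthesize and join the new strands, supply deoxynucleotides, package new DNA into chromatin and start S phase. The set of 37 genes was named by symbol from this known biology, with earlier results of these data known. All 37 were found among the 24521 genes of the authors' normalized table. They were joined by gene identifier to the raw counts, which cover 55421 genes. RNA came from whole mouse lungs at embryonic day E18.5, taken before the lungs filled with air. The 3 wild-type lungs were compared with 3 lungs labelled Mll3FDC/FDC, a homozygous knockout of Mll3, the histone H3 lysine 4 methyltransferase gene also called Kmt2c. No further allele or agent is given for either genotype. The sequence that the allele removes, the strain, the litter and whether each library is a separate embryo are not stated in the labels, so p-values measure only the spread between these samples.

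In each cell cycle, the origin recognition complex, CDC6 and CDT1 load the ring-shaped MCM2 to MCM7 helicase onto DNA in G1. Kinases, CDC45, the GINS complex and MCM10 then turn the loaded ring into a moving helicase, and DNA polymerases alpha, delta and epsilon follow it. Most of these genes are targets of the E2F transcription factors, which the cyclin E and CDK2 kinase releases from the retinoblastoma proteins, so their transcripts mark dividing cells. Late fetal lung still holds dividing epithelial, endothelial and mesenchymal cells. In a bulk sample, fewer cells of a type and less RNA per cell cannot be told apart.

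The promoters were read first for the E2F site because it is the known shared feature of these genes, and 5 of them are printed to show the forms it takes. Windows of 300 bases, from 250 before to 50 after each transcription start (RefSeq, build GRCm38.p6), were found for 32 of the 37 genes, some with more than 1 start, and Gins1, Gins2, Pole, Ccne2 and Mcm4 had none. The words searched on both strands were TTTCCCGC, TTTGGCGC, TTTCGCGC and TTTGCCGC. At least 1 of these words lay in 13 of the 32 genes (40.6%), against 4.38% of the 12133 tested genes that have a window. Overlapping pairs of words were seen at 2 places, 1 each in Mcm5 and Mcm6. The 180 bases before the start are given below 5′ to 3′ on the gene's strand, with the E2F words in capitals, for Mcm5 at chr8:75109329-75109508 (plus strand), Mcm6 at chr1:128359706-128359885 (minus strand), Cdc6 at chr11:98907971-98908150 (plus strand), Orc1 at chr4:108579274-108579453 (plus strand) and Pola1 at chrX:93632156-93632335 (minus strand).
Mcm5: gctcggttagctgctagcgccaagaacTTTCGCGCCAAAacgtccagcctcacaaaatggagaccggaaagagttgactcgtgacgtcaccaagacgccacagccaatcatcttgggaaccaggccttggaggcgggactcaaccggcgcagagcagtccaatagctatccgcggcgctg
Mcm6: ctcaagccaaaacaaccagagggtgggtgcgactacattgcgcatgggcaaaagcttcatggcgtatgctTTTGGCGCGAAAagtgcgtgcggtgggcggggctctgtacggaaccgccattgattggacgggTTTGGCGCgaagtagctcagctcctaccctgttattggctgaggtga
Cdc6: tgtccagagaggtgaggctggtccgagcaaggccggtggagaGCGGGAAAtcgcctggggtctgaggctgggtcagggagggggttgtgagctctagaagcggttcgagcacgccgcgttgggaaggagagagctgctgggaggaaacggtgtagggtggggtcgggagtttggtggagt
Orc1: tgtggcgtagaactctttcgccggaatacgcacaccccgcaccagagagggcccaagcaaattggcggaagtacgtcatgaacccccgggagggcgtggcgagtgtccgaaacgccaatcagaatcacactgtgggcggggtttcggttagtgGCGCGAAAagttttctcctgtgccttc
Pola1: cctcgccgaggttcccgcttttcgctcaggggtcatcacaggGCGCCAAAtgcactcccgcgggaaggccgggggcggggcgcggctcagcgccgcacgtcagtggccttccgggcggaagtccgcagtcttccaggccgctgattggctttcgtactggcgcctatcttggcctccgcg
In Mcm5 and Mcm6 a word on one strand runs into a word on the other, giving 1 unbroken block of capitals, and Mcm6 has a further word nearer its start. Cdc6, Orc1 and Pola1 have a single word each in the window. These starts are those of RefSeq and can differ from the annotation used for the counts. The printed stretch of Cdc6 lies inside the gene as counted, which begins at chr11:98907801.

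The other genes with an E2F word were Mcm3, Mcm7, Cdt1, Gins3, Rfc3, Pold1, Lig1 and Uhrf1. The CCAAT box, searched as CCAAT on both strands, lay in 18 of the 32 genes (56.2%), against 42.1% of tested genes. The word TTTGAA, the core of the CHR element found in many promoters of the later cell cycle, lay in 4 of the 32 genes (12.5%), against 14.7% of tested genes. Of 22 mitosis genes listed for comparison, 19 had a window, and there E2F words were found in 1 gene (5.26%), CCAAT in 16 (84.2%) and CHR words in 14 (73.7%). A match is a run of letters and was not measured as a bound site in these lungs.

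**Figure D1:**
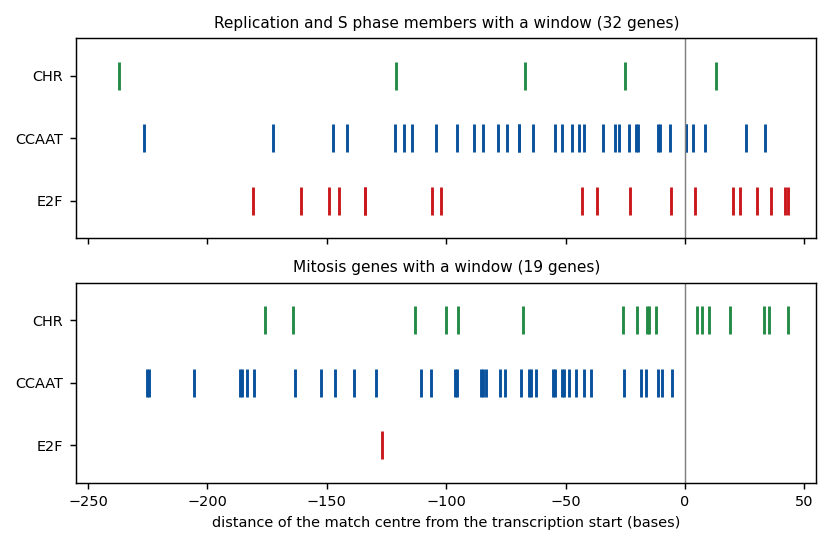
Position of each E2F, CCAAT and CHR word relative to the transcription start (x axis, bases, 0 is the start) in the 32 replication genes with a window (upper panel) and in 19 mitosis genes (lower panel), both strands together; each tick is the centre of a match. E2F words fell on 13 of the 32 replication genes and on 1 of the 19 mitosis genes, and CHR words on 4 and 14.

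The libraries held between 20158689 and 23305306 reads assigned to genes, and the filter on low counts left 19042 genes for testing, all 37 replication genes among them. Mean reads per library ran from 57 to 2038 over the 37 genes. The Kmt2c transcript itself was at 162, 179 and 162 CPM (read counts scaled for library size with TMM factors) in the wild-type lungs and at 143, 171 and 159 CPM in the knockout lungs. These genotypes overlapped, with a log2 fold change of -0.09 ± 0.08 (SE, n = 3 per genotype; edgeR quasi-likelihood test, Benjamini-Hochberg adjusted p = 0.74), and counts over a whole gene do not check an allele whose deleted part is not given. All 10 lung identity markers, Sftpc and Nkx2-1 among them, were detected. Knockout 3 stood apart from the other libraries in sex-linked transcripts, with 59951 Xist reads and 4 reads of Y-linked genes, whereas in the rest Xist had 6 to 27 reads and the Y-linked genes had 7414 to 9300. Knockout 1 stood apart in the replication genes, and most medians and named estimates are given both with and without it.

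All 37 replication genes had a higher mean estimate in the knockout lungs, but none passed the test, and a single knockout library held most of the difference. The median log2 fold change over the 37 genes was 0.31, against 0.01 over all tested genes, and 37 of 37 estimates were positive, against 52.6% of all tested genes. In edgeR's quasi-likelihood test over all 19042 genes, 0 of the 37 had an adjusted p under 0.05, where 0.368% of tested genes (12 higher and 58 lower) did. At an unadjusted p under 0.05, 17 were higher in the knockout, against 4.71% of tested genes. In 18 genes all 3 knockout libraries lay above all 3 wild-type libraries, against 8.6% of tested genes. The estimates ran from 0.06 for Rfc3, a clamp loader subunit, to 0.52 for Cdc6, the helicase loader. These genes belong to 1 program and vary together, so 37 members are not 37 independent observations.

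Every one of the 37 genes was at its highest in knockout 1, which was the highest library for 26.5% of tested genes. Summed over the 37 genes, the libraries reached 865, 909 and 918 CPM in wild type and 1332, 1009 and 945 CPM in knockouts 1, 2 and 3. Knockout 1 lay far above the rest, knockout 2 lay above every wild-type library, and knockout 3 lay just above the highest wild-type library. Relative to each gene's wild-type mean, knockout 1 was 1.23- to 1.90-fold (median 1.47), knockout 2 was 0.942- to 1.41-fold (median 1.13) and knockout 3 was 0.843- to 1.25-fold (median 1.06). Knockout 1 exceeded the next highest library by 1.11- to 1.64-fold, with the widest gap in Mcm10, which helps the helicase start. The SD of CPM was larger among knockout than among wild-type libraries for all 37 genes, against 58.9% of tested genes.

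**Figure D2:**
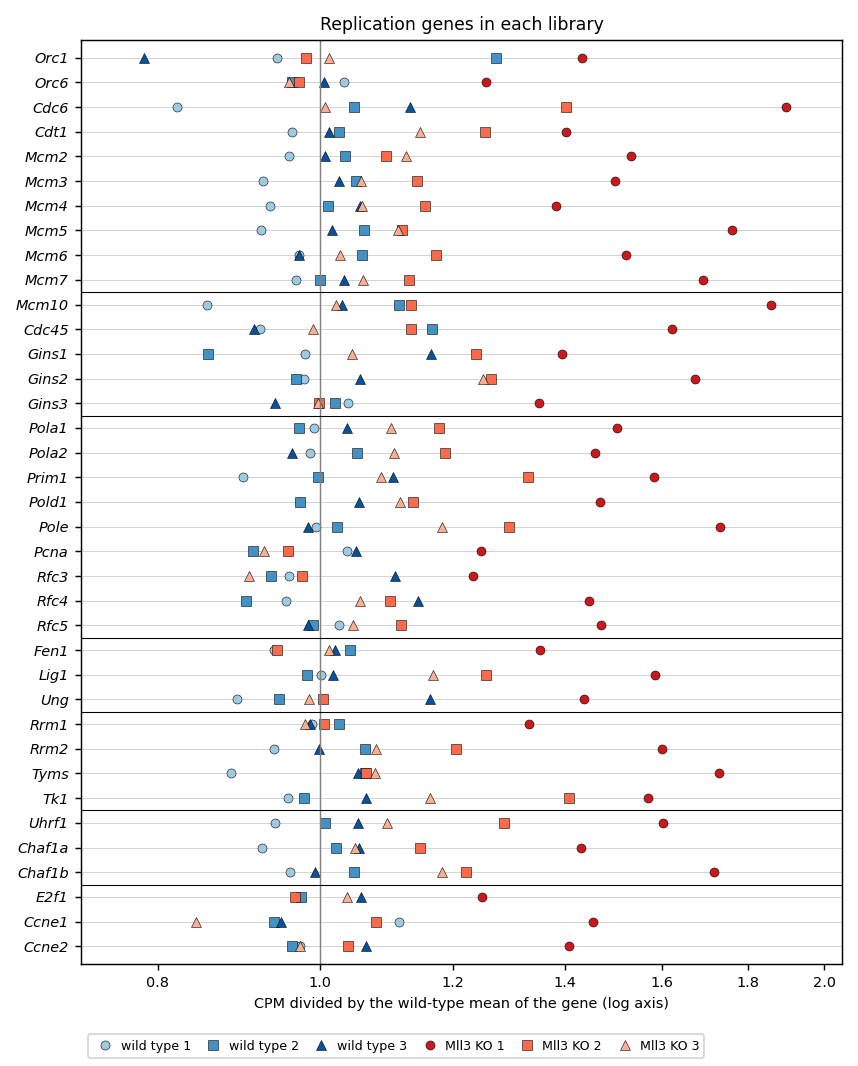
CPM of each of the 37 genes in each of the 6 libraries, divided by that gene's wild-type mean (x axis, log scale; 1 is the wild-type mean), with genes grouped by role between the lines. Knockout 1 is the rightmost point for every gene, at 1.23 to 1.90; knockout 2 lies between 0.942 and 1.41, above all wild-type points in 24 genes, and knockout 3 between 0.843 and 1.25, above them in 18.

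Without knockout 1 the median of the 37 log2 fold changes was 0.13, with 27 positive estimates, against 50.2% of the genes tested in that fit. Again 0 of the 37 passed in edgeR, and 9 were higher at an unadjusted p under 0.05, against 5.15% of tested genes: Cdt1, Gins2, Pola1, Pola2, Pole, Lig1, Rrm2, Tk1 and Uhrf1. The largest remaining estimates were 0.36 ± 0.13 (SE) for Tk1, 0.33 ± 0.13 for Gins2 and 0.30 ± 0.08 for Pole. In 10 genes the sign turned, Rfc3 and Pcna going furthest, both to -0.09. Knockout 2 alone was above all wild-type libraries in 24 of the 37 genes, against 31.2% of tested genes, and knockout 3 in 18, against 25.8%. Knockout 2 was above wild type in all 18 of the latter.

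**Figure D3:**
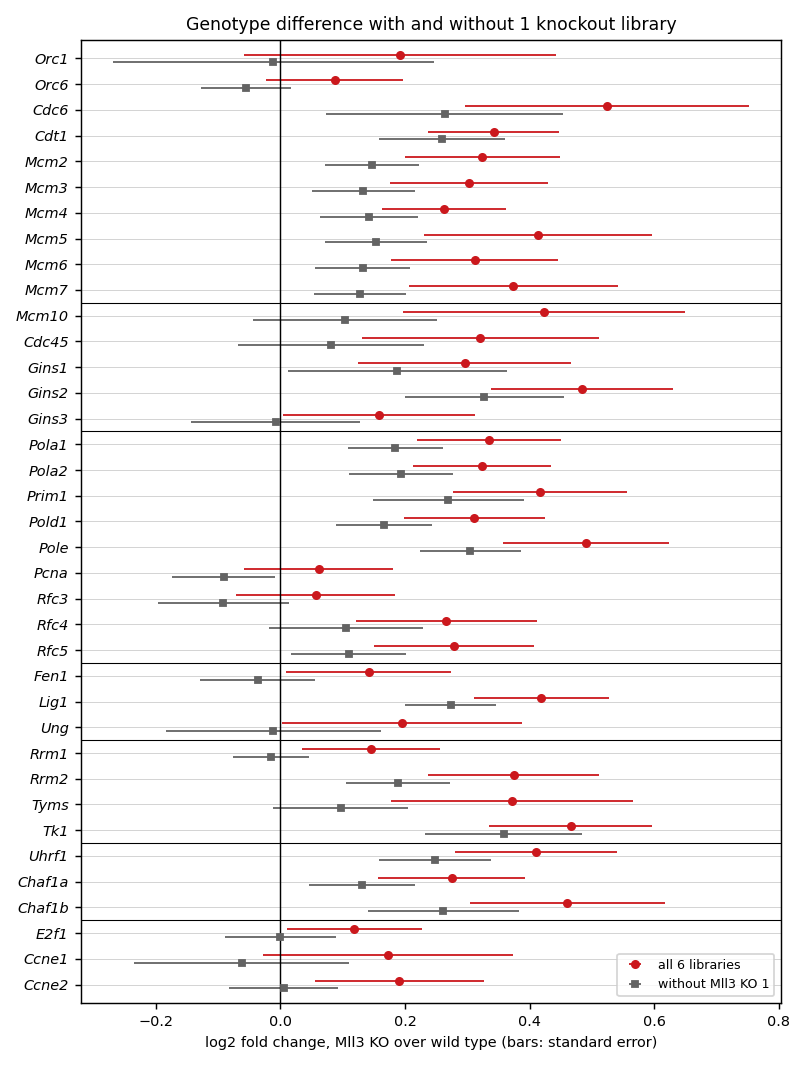
Log2 fold change of knockout over wild type for each of the 37 genes (x axis; bars are standard errors of the edgeR fit), with all 6 libraries (circles) and without knockout 1 (squares). All 37 circles lie above 0, with a median of 0.31, and the squares have a median of 0.13 with 10 of them below 0.

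The sample titles carry 1 of 2 number prefixes whose meaning is not given; wild type 1, wild type 2 and knockout 1 share one, and the other libraries share the other. Within the prefix of knockout 1 the median log2 difference was 0.60 and all 37 genes were higher in the knockout, and within the other prefix it was 0.09 and 28 were higher. The first value rests on knockout 1 alone as the only knockout of its prefix, so the prefix and that library cannot be told apart there. With the prefix as a term, edgeR called 3 of the 37 genes higher, against 0.746% of tested genes: Pole (log2 fold change 0.56, adjusted p = 0.021), Lig1 (0.47, adjusted p = 0.030) and Pola2 (0.39, adjusted p = 0.048). DESeq2 called 1, Lig1 (adjusted p = 0.039), where 0.365% of the genes it tested were called higher. edgeR without a filter on low counts called 3, Lig1, Pole and Uhrf1 (adjusted p = 0.0055, 0.0071 and 0.032). In that fit 0.298% of 34615 genes were called higher, a share over all genes with a read, including those with very few.

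Origin licensing genes, 10 in number, had a median log2 fold change of 0.32 (0.14 without knockout 1), with 5 at an unadjusted p under 0.05 in edgeR and 6 without overlap between genotypes. For this and the later roles, the shares of all tested genes with the knockout higher were 4.71% and 8.6%. The lowest p belonged to Cdt1, which brings the MCM ring to origins and is destroyed once S phase begins. Cdt1 was at 12.9, 13.7 and 13.5 CPM in wild type and at 18.8, 16.8 and 15.4 CPM in knockouts 1, 2 and 3. All 3 knockout libraries were higher, by a log2 fold change of 0.34 ± 0.11 (SE, n = 3 per genotype; edgeR adjusted p = 0.25), and without knockout 1 the estimate was 0.26 ± 0.10. Cdc6, the ATPase that works with the origin recognition complex to load MCM, had the largest estimate of the 37, with a wide scatter. It stood at 5.33, 6.80 and 7.34 CPM in wild type and at 12.3, 9.10 and 6.53 CPM in the knockouts. Knockouts 1 and 2 lay above wild type and knockout 3 lay inside it, and the estimate of 0.52 ± 0.23 was 0.26 ± 0.19 without knockout 1, where Tk1 had the largest. Orc1 and Orc6, subunits of the origin recognition complex, were at 2.40 ± 0.596 and 34.6 ± 1.252 CPM in wild type (mean ± SD, n = 3) and at 2.74 ± 0.605 and 36.7 ± 5.81 CPM in the knockout. Both overlapped between genotypes, and both estimates were below 0 without knockout 1 (-0.01 and -0.06).

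The helicase genes Mcm2, Mcm3, Mcm4, Mcm5 and Mcm7 did not overlap between genotypes. Mcm2 was at 41.3, 44.6 and 43.4 CPM in wild type and at 66.0, 47.2 and 48.5 CPM in the knockouts. Mcm3 was at 42.3, 48.1 and 46.9 CPM in wild type and at 68.6, 52.2 and 48.4 CPM in the knockouts. In both, knockout 1 was far above the rest, and in Mcm3 the lowest knockout library was almost level with the highest wild-type library. Mcm4 read 54.7, 59.2 and 61.9 CPM in wild type and 81.0, 67.6 and 62.1 CPM in the knockouts, so knockout 3 and wild type 3 were almost level. Mcm5 read 34.9, 40.2 and 38.5 CPM in wild type and 66.7, 42.4 and 42.1 CPM in the knockouts, with the largest excess in knockout 1 of the 6 subunits (1.76-fold over the wild-type mean). Mcm7 read 27.4, 28.3 and 29.2 CPM in wild type and 47.9, 31.9 and 30.0 CPM in the knockouts. In Mcm4, Mcm5 and Mcm7 knockout 3 was the lowest knockout library, and Mcm6, the remaining subunit, overlapped because knockout 3 (82.7 CPM) lay below wild type 2 (85.3 CPM). The log2 fold changes of the 6 subunits ran from 0.26 (Mcm4) to 0.41 (Mcm5), with edgeR adjusted p from 0.37 to 0.49, and without knockout 1 from 0.13 to 0.15.

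The 6 MCM proteins form a ring with 1 copy of each, and their transcripts kept unequal levels per length in every library. Per kilobase of exon, Mcm6 and Mcm4 were the most abundant in wild type, at 17.3 ± 0.872 and 16.3 ± 1.01 CPM per kb (SD, n = 3). Mcm3 followed at 12.2 ± 0.810, then Mcm5 at 9.49 ± 0.678, and Mcm7 and Mcm2 were lowest, at 6.39 ± 0.207 and 6.19 ± 0.239 CPM per kb. Mcm6 and Mcm4 overlapped in wild type, as did Mcm7 and Mcm2, whereas the libraries did not overlap from Mcm4 down to Mcm3, from Mcm3 to Mcm5 or from Mcm5 to Mcm7. In the knockout the means were 21.4 ± 4.40 for Mcm6, 19.6 ± 2.72 for Mcm4, 15.04 ± 2.86 for Mcm3, 12.6 ± 3.53 for Mcm5, 8.27 ± 2.22 for Mcm7 and 7.75 ± 1.51 CPM per kb for Mcm2, in the same order. The highest subunit exceeded the lowest by 2.62- to 2.98-fold over the 6 libraries, and by 2.77-fold in knockout 1. Summed MCM2 to MCM7 counts were 279, 306 and 298 CPM in wild type and 453, 336 and 314 CPM in the knockouts, so knockout 1 held more of every subunit with a similar span from the highest to the lowest.

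**Figure D4:**
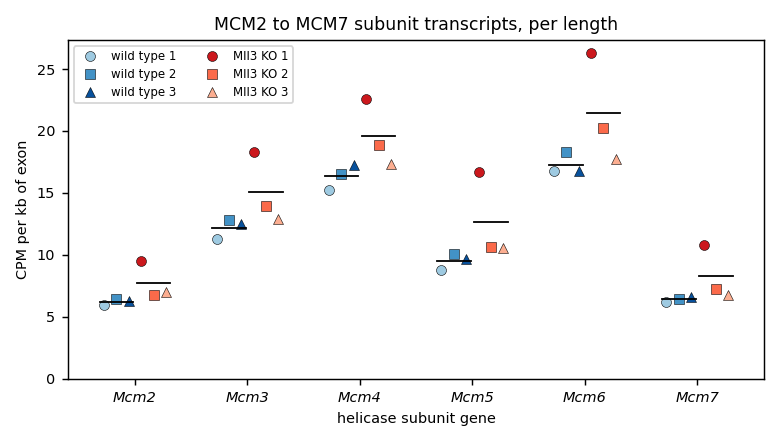
CPM per kilobase of exon of the 6 helicase subunit genes (y axis) in each wild-type and knockout library (points), with the mean of each genotype as a line. Mcm6 and Mcm4 are highest and Mcm2 and Mcm7 lowest in all 6 libraries, and knockout 1 is the highest point for each subunit.

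The 5 helicase activation genes had a median of 0.32 (0.10 without knockout 1), and 1 of them, Gins2, did not overlap between genotypes. Gins2, a subunit of the GINS complex that holds the active helicase together with CDC45, was at 7.18, 7.10 and 7.76 CPM in wild type and at 12.3, 9.29 and 9.19 CPM in the knockouts. All knockout libraries were above all wild-type libraries, with a log2 fold change of 0.48 ± 0.15 (SE; edgeR adjusted p = 0.24). The partner subunits were smaller in estimate, 0.30 for Gins1 and 0.16 for Gins3 (0.19 and -0.01 without knockout 1), and both overlapped. Cdc45 averaged 9.37 ± 1.35 CPM in wild type and 11.7 ± 3.10 CPM in the knockout (SD, n = 3), and Mcm10 averaged 8.76 ± 1.15 and 11.7 ± 3.98 CPM. The Cdc45 estimate of 0.32 was 0.08 without knockout 1. For Mcm10 the estimate of 0.42 was 0.10 without knockout 1, where this gene stood at 16.3 CPM against 7.50 to 9.93 CPM in the other 5 libraries.

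Among the 9 synthesis genes, 5 did not overlap and 5 had an unadjusted p under 0.05 in edgeR, with a median of 0.31 (0.17 without knockout 1). Pole, the catalytic subunit of leading-strand polymerase epsilon, was at 20.1, 20.7 and 19.8 CPM in wild type and at 35.0, 26.2 and 23.8 CPM in the knockouts. The wild-type libraries were tightly grouped and every knockout library was above them, with a log2 fold change of 0.49 ± 0.13 (SE; unadjusted p = 0.0045, adjusted p = 0.19, edgeR). Without knockout 1 the estimate was 0.30 ± 0.08 (edgeR unadjusted p = 0.0040, adjusted p = 0.20). Pola1 and Pola2, the catalytic and accessory subunits of polymerase alpha, which starts each new strand with primase, had estimates of 0.34 ± 0.12 and 0.32 ± 0.11 (0.18 and 0.19 without knockout 1). Pola1 was at 24.8, 24.4 and 26.0 CPM in wild type and at 37.7, 29.5 and 27.6 CPM in the knockouts. Pola2 was at 20.6, 22.0 and 20.1 CPM in wild type and at 30.5, 24.8 and 23.1 CPM in the knockouts. In both genes the 3 knockout libraries were above all wild-type libraries. Pola1 is the only one of the 37 genes on the X chromosome, and knockout 3, the library with Xist reads, was the lowest knockout for it, as it was for the 2 autosomal genes just described.

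Primase itself was less clear, because Prim1 read 17.3 CPM in knockout 3 and 17.5 CPM in wild type 3, although its estimate was 0.42 ± 0.14 (SE; edgeR adjusted p = 0.30), or 0.27 without knockout 1. Pold1, the catalytic subunit of lagging-strand polymerase delta, was at 23.9, 23.9 and 25.9 CPM in wild type and at 36.1, 27.9 and 27.4 CPM in the knockouts. The genotypes did not overlap, at 0.31 ± 0.11, or 0.17 without knockout 1. Rfc5, a subunit of the clamp loader, was at 16.4, 15.8 and 15.7 CPM in wild type and at 23.5, 17.9 and 16.7 CPM in the knockouts, and also did not overlap. Its estimate of 0.28 was 0.11 without knockout 1. The partner subunits Rfc4 and Rfc3 overlapped, at 0.27 and 0.06 (0.11 and -0.09 without knockout 1). Pcna, the sliding clamp that holds polymerases on DNA and the textbook S phase marker, was one of the least different genes, at 38.3, 33.6 and 38.7 CPM in wild type and 46.0, 35.3 and 34.2 CPM in the knockouts. Only knockout 1 lay above wild type, and the log2 fold change was 0.06 ± 0.12 (edgeR adjusted p = 0.90), with estimates of -0.09 without knockout 1 and -0.0060 without wild type 2.

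Lig1 had the lowest p of the 37 genes and was the best separated of the 3 genes that finish strands or repair them. This ligase seals Okazaki fragments on the lagging strand. Lig1 was at 39.3, 38.6 and 40.0 CPM in wild type and at 62.3, 49.4 and 45.9 CPM in the knockouts. The wild-type libraries were close together and every knockout library was above them, with a log2 fold change of 0.42 ± 0.11 (SE; edgeR unadjusted p = 0.0032, adjusted p = 0.17). Without knockout 1 the estimate was 0.27 ± 0.07 (edgeR adjusted p = 0.20). Fen1, the flap nuclease that acts just before the ligase, averaged 19.8 ± 1.08 CPM in wild type and 21.8 ± 4.34 CPM in the knockout (SD, n = 3). Ung, which removes uracil from DNA, was at 5.21 ± 0.750 and 5.95 ± 1.33 CPM. Both overlapped between genotypes, and both were at or slightly below 0 without knockout 1 (-0.04 and -0.01).

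Of the 4 nucleotide supply genes, 3 did not overlap, with a median of 0.37 (0.14 without knockout 1). Tk1, thymidine kinase of the salvage pathway, was at 9.66, 9.89 and 10.8 CPM in wild type and at 15.9, 14.2 and 11.8 CPM in the knockouts. Knockouts 1 and 2 were close together and well above wild type, and the log2 fold change was 0.47 ± 0.13 (SE; edgeR adjusted p = 0.20), or 0.36 without knockout 1. Rrm2, the S phase subunit of the reductase that makes deoxynucleotides, read 30.0, 34.0 and 31.97 CPM in wild type and 51.2, 38.6 and 34.6 CPM in the knockouts. The Rrm2 estimate of 0.37 was 0.19 without knockout 1. Tyms, which makes thymidylate anew, was at 14.5, 17.4 and 17.2 CPM in wild type and at 28.3, 17.4 and 17.6 CPM in the knockouts. For Tyms the separation was nominal, since knockout 2 and wild type 2 were almost level, and the estimate of 0.37 was 0.10 without knockout 1. Rrm1, the large reductase subunit, which is present outside S phase too, averaged 87.5 ± 1.93 CPM in wild type and 96.7 ± 17.2 CPM in the knockout (SD, n = 3), with knockouts 2 and 3 at 88.0 and 85.6 CPM, inside or just below the wild-type range.

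All 3 genes that act on the chromatin of new DNA had an unadjusted p under 0.05 in edgeR, with a median of 0.41, the highest of the roles. Uhrf1, which brings the maintenance methyltransferase to hemimethylated DNA, was at 24.1, 25.8 and 27.0 CPM in wild type and at 41.1, 33.0 and 28.1 CPM in the knockouts. Chaf1b, a subunit of the histone chaperone CAF-1, was at 8.17, 8.93 and 8.46 CPM in wild type and at 14.6, 10.4 and 10.1 CPM in the knockouts. Neither gene overlapped, and the log2 fold changes were 0.41 ± 0.13 and 0.46 ± 0.16 (SE; edgeR adjusted p = 0.27 and 0.30). Chaf1a, the large CAF-1 subunit, overlapped only because knockout 3 (27.8 CPM) lay just under wild type 3 (28.0 CPM). The median of these 3 genes was 0.25 without knockout 1.

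The 3 regulators of S phase entry had the lowest median of the roles, 0.17. Cyclin E, the product of Ccne1 and Ccne2, activates CDK2, and E2F1 is the transcription factor that switches on much of the set. Ccne2, the lowest p of the group, was at 20.5, 20.3 and 22.4 CPM in wild type and at 29.6, 21.9 and 20.5 CPM in the knockouts, and only knockout 1 was above wild type. The log2 fold changes were 0.19 ± 0.14 for Ccne2, 0.17 ± 0.20 for Ccne1 and 0.12 ± 0.11 for E2f1 (SE; edgeR adjusted p from 0.67 to 0.81), and none of the 3 was separated between genotypes. Without knockout 1 the estimates were 0.0049, -0.06 and -0.000145. E2f1 was at 19.4, 19.5 and 21.2 CPM in wild type and at 25.0, 19.3 and 20.8 CPM in the knockouts, so it stood in knockout 1 at 1.249-fold of the wild-type mean, against a median of 1.47-fold for the 37 genes.

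Genes with and without an E2F word covered nearly the same range. Other forms of the E2F site, and sites outside the window, were not searched for. The 13 with a word had a median log2 fold change of 0.34 (0.06 to 0.52) and the 19 without one a median of 0.28 (0.06 to 0.47). In knockout 1 the medians over the wild-type mean were 1.503-fold and 1.458-fold.

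Further genes of the same pathways gave 0 calls in edgeR with genotype alone and in DESeq2. They were listed by function, with earlier results of these data known. For scale, 4.71% of all tested genes were higher at an unadjusted p under 0.05, and 8.6% did not overlap with the knockout higher. Estimates were positive in 52.6% of tested genes, and in 50.2% without knockout 1. The fit with the title prefix as a term called 0.746% higher. Of 16 other licensing and origin firing genes, 16 had a positive estimate, with a median of 0.12, and 4 had an unadjusted p under 0.05 in edgeR. Of these 16, 15 were highest in knockout 1, and without it 9 were positive and the median was 0.06. Ticrr, which helps recruit CDC45, had the lowest p and averaged 9.76 ± 1.14 CPM in wild type and 13.8 ± 2.45 CPM in the knockout (SD, n = 3; log2 fold change 0.50, edgeR adjusted p = 0.24). It was followed by Cdc7, the kinase that fires origins, at 0.36, and Mtbp, the partner of the Ticrr protein, at 0.35. These 3 estimates were 0.35, 0.22 and 0.25 without knockout 1. Of 24 other fork genes, 23 were positive, with a median of 0.20, and 9 had an unadjusted p under 0.05 in edgeR and 11 did not overlap. Of these 24, 22 were highest in knockout 1, and without it 21 were positive and the median was 0.10. Atad5, which unloads the clamp, was at 22.5, 25.1 and 22.7 CPM in wild type and at 33.5, 29.9 and 27.0 CPM in the knockouts. All knockout libraries were above wild type, and the estimate was 0.36 ± 0.10 (edgeR adjusted p = 0.18). Atad5, Wdhd1 and Clspn passed in edgeR with the title prefix as a term, at 0.41, 0.45 and 0.55 (adjusted p = 0.034, 0.042 and 0.034). Wdhd1 and Clspn encode fork scaffold proteins, and their estimates with genotype alone were 0.41 and 0.47. With genotype alone and without knockout 1, the estimates of Atad5, Wdhd1 and Clspn were 0.28, 0.27 and 0.27.

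Other nucleotide supply genes were more mixed, with 9 of 12 positive, a median of 0.12, and 2 higher and 1 lower at an unadjusted p under 0.05 in edgeR. The median was 0.06 and 8 were positive without knockout 1. Dctd, a deaminase on the way to thymidylate, was 0.60 ± 0.18 higher in estimate (edgeR adjusted p = 0.24), at 3.57, 2.79 and 3.24 CPM in wild type and 5.19, 5.23 and 4.15 CPM in the knockouts. Dctd was highest in knockout 2 and kept an estimate of 0.55 without knockout 1. Samhd1, which breaks deoxynucleotides down, had a negative estimate of -0.22 ± 0.08 (edgeR adjusted p = 0.33), and Dtymk, thymidylate kinase, one of 0.21 (0.12 without knockout 1). Of 11 S phase chromatin genes, 9 were positive, with a median of 0.24 and 3 at an unadjusted p under 0.05 in edgeR. All 11 were highest in knockout 1, and without it the median was 0.11. Dnmt1, the maintenance methyltransferase, averaged 105 ± 4.94 CPM in wild type and 126 ± 15.7 CPM in the knockout (edgeR adjusted p = 0.27). Dnmt1 and Hells, a chromatin remodeller, passed with the prefix term at 0.32 and 0.45 (edgeR adjusted p = 0.036 and 0.041). With genotype alone the Hells estimate was 0.36, and its genotypes overlapped because knockout 3 (31.1 CPM) lay below wild type 2 (31.8 CPM). Mms22l, which acts at damaged forks, did not overlap between genotypes (0.42). The Hells and Mms22l estimates were 0.18 and 0.25 without knockout 1. Of 22 tested G1 to S regulators, 16 were positive, with a median of 0.13 and 5 higher at an unadjusted p under 0.05 in edgeR. The median was 0.08 and 17 were positive without knockout 1. Cdk2, the cyclin E kinase, was at 62.2, 64.7 and 62.3 CPM in wild type and at 77.9, 70.0 and 74.6 CPM in the knockouts, without overlap (0.23 ± 0.06, edgeR adjusted p = 0.20). Skp2, which targets CDK inhibitors for destruction, and E2f7, a repressor of E2F targets, were at 0.38 and 0.26 (0.20 and 0.18 without knockout 1). With the prefix as a term edgeR called 2 of these regulators higher, Skp2 (adjusted p = 0.038) and Fbxo5, the latter named after its value was seen.

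Mitosis genes stood out in knockout 1 too, by a wider margin. All 22 were highest there and had a positive estimate, with a median of 0.37, yet 0 were separated between genotypes and 1, the checkpoint kinase gene Bub1, had an unadjusted p under 0.05 in edgeR (log2 fold change 0.47, adjusted p = 0.43). In knockout 1 the median log2 deviation from the wild-type mean was 0.81 for mitosis genes and 0.55 for the 37 replication genes. Wild type 2 lay at 0.16 for mitosis genes and 0.02 for replication genes, so the wild-type libraries spread more in the former. Mki67, the general marker of dividing cells, was at 235, 300 and 251 CPM in wild type and at 413, 306 and 283 CPM in the knockouts, knockout 3 being inside the wild-type range. Birc5, the survivin gene of the chromosomal passenger complex, was at 0.41. The Bub1 and Birc5 estimates were 0.21 and 0.19 without knockout 1. Without knockout 1 the medians were 0.09 for mitosis genes and 0.13 for replication genes; the difference between the lists was not tested.

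**Figure D5:**
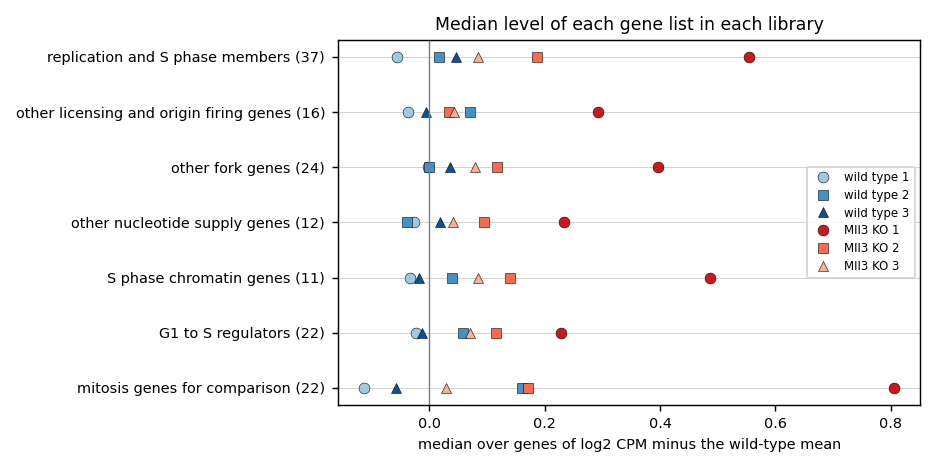
Median over the genes of each list of log2 CPM minus the gene's wild-type mean (x axis) in each of the 6 libraries, with the number of genes in brackets. Knockout 1 is the rightmost point in every list, from 0.23 in the G1 to S regulators and the other nucleotide supply genes to 0.81 in the mitosis genes, and at 0.55 in the 37 replication genes.

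Markers of other cells the dissected lobes could hold were read beside these values. Of the 6 cartilage markers 4 were tested, and their summed level was 3.70, 4.44 and 3.86 CPM in wild type and 13.6, 8.51 and 6.11 CPM in knockouts 1, 2 and 3. By sum, the knockout libraries stood in the same order as for the replication genes, and Col9a1 and Col9a3 followed it. Col2a1 (1.34, 2.15 and 1.17 CPM) and Comp (0.335, 0.734 and 0.700 CPM) did not, both being highest in knockout 2. None of the 4 passed in edgeR with genotype alone, where Col9a3 had an adjusted p of 0.19 (0.027 with the prefix as a term), and 3 had an unadjusted p under 0.05. The part of cartilage in the replication gene values was not tested. Erythroid markers, with 10 of 12 tested, summed to 3867, 2885 and 4365 CPM in wild type and to 2988, 2589 and 4478 CPM in the knockouts, so knockout 1 was inside the wild-type range. Granulocyte markers (5 of 8 tested) summed to 21.9 to 38.8 CPM in wild type and 23.6, 46.3 and 18.52 CPM in the knockouts, with at most 3 reads of Elane, and 1 of 9 lymphocyte and thymus markers, Rag1, was tested. Liver markers (4 of 6 tested) reached 59.0 CPM in knockout 2, against 7.32 CPM in knockout 1 and 7.45 to 13.1 CPM in wild type. Macrophage markers (6 tested) were at 152 to 164.6 CPM in wild type and 135 to 147 CPM in the knockouts, and the 5 endothelial markers at 1639 to 1960 and 1541 to 1643 CPM. Their members differed, with a positive log2 fold change for 1 macrophage marker, Cd68 (0.09), and 1 endothelial marker, Tek (0.10). Csf1r (-0.05) and C1qb (-0.0064) hardly moved. The 5 fibroblast markers summed to 2993 to 3405 CPM in wild type and to 2354, 3249 and 2731 CPM in the knockouts, lowest in knockout 1. Most of that sum is Col1a1 and Col1a2, which were lowest in knockout 1, at 663 and 1026 CPM. Tcf21, Pdgfra and Dcn were inside their wild-type ranges in knockout 1, at 332, 303 and 29.0 CPM. Lung identity markers summed to 15565 to 18015 CPM in wild type and 15433, 15638 and 18415 CPM in the knockouts, and 0 of the 10 passed in edgeR with genotype alone. Most of that sum is Sftpc. With the prefix as a term edgeR called 3 lower, the alveolar type 1 cell genes Ager and Hopx (adjusted p = 0.032 and 0.028) and the ciliated cell gene Foxj1 (adjusted p = 0.0095). Over all 19042 tested genes that fit called 625, of which 142 were higher and the rest lower. DESeq2 called 1 of the 10 markers higher and 2 lower, where it called 349 genes in all, 60 of them higher. Ager was at 1182, 1033 and 1168 CPM in wild type and at 831, 765 and 876 CPM in the knockouts, lower in all 3. Epcam was at 98.6, 94.5 and 108 CPM in wild type and at 146, 126 and 118 CPM in the knockouts, higher in all 3. Nkx2-1 was higher in all 3 too, at 340, 386 and 391 CPM in wild type and 436, 426 and 465 CPM in the knockouts. At an unadjusted p under 0.05 in edgeR with genotype alone, 2 of the 10 markers were higher and 3 lower. How far the mix of cells bears on the replication genes was not tested.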

How the data were processed

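Polyadenylated RNA was read as stranded single reads, per the labels' protocols. Per the submitters' processing notes bcl2fastq 2.19.1, GSNAP, featureCounts 1.6.3, DESeq2 1.24.0 and mm10 were used. The deposited raw count table was made with strand setting 2, a minimum mapping quality of 1 and Ensembl release 98, per the file headers, so reads shared with near-identical copies may be missing. Of its 55513 rows, 92 are spike-in names with 1 read in all and were left out. The authors' deposited normalized signal, counts divided by a size factor per library, gave whole reads within 0.1 read for 100% of values (99.996% in knockout 2), and edgeR on those reads called the same number of genes, 70.

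The members and lists were chosen with earlier results of these data known. Genotypes were compared with edgeR 4.0.16 (R 4.3.3; TMM, filterByExpr, robust quasi-likelihood test, Benjamini-Hochberg adjustment over 19042 genes, threshold 0.05); each standard error is the size of the log2 fold change over the square root of F. Replicate numbers follow sample order. No library was a copy, chi-square per degree of freedom within genotypes being 9.27 to 22.95. Values per library were given for members without overlap between genotypes and for the lowest p in each role, and for others as a choice made after their values were seen; other lists name up to 3 genes of lowest p. Alternatives were other scaling, filters, DESeq2 1.42.0, limma 3.58.1 (voom, and trend on log2 signal plus 1), the title prefix as a term or a split, and each library left out. The test was also run on counts drawn from a known model, and the outcome of that run is not reported here. No column of another sample was present.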

Additional observations from a re-analysis of the deposited data

How the results depend on the processing

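The count of replication genes called higher was 0 with DESeq2-type size factors, scaling to library size alone, a filter of 1 CPM in 3 libraries, limma voom, limma trend, reads recovered from the normalized table (chosen after seeing the data) and each library left out. It was 1 in DESeq2, 3 without a filter on low counts and 3 when the title prefix was a term. Further, 0 were called lower in any of these. The median of the 37 log2 fold changes was 0.29 to 0.37 in the alternatives that keep all 6 libraries in one fit, 0.13 to 0.40 when 1 library was left out (lowest without knockout 1), 0.604 within title prefix AK7986 and 0.0927 within AK7987; the numbers of positive estimates were 37 in all fits of 6 libraries, 27 without knockout 1, 36 without wild type 2 and 28 within AK7987. Leaving out knockout 1 turned the sign of 10 genes and gave the lower end of their ranges over the fits with 1 library left out: Orc1 (-0.0112 to 0.399), Orc6 (-0.0557 to 0.153), Gins3 (-0.00798 to 0.231), Pcna (-0.0915 to 0.138), Rfc3 (-0.0916 to 0.142), Fen1 (-0.0368 to 0.242), Ung (-0.0113 to 0.311), Rrm1 (-0.0154 to 0.223), E2f1 (-0.000145 to 0.194) and Ccne1 (-0.0625 to 0.340). Leaving out wild type 2 also turned the sign of Pcna (-0.0060). The cause of the excess in knockout 1 was not tested. Over all tested genes edgeR called 70, against 443 without a filter, 349 in DESeq2, 8 in limma voom, 16 in limma trend and 625 with the prefix term, and 0 to 41 when 1 library was left out: 3, 0 and 0 without wild type 1, 2 and 3, and 41, 11 and 27 without knockout 1, 2 and 3. The cause of these differences was not tested. The labels give no replicate numbers that pair libraries across genotypes; the title prefix, which both genotypes share, entered as a term above. Whether depth or the spread between libraries limited the calls was not tested.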
